A study of Mus musculus with 6 samples.

Results

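A set of 10 genes that mark cardiac fibroblasts at rest or after activation were followed in infarcted mouse hearts, and the results below compare hearts in which the microRNA miR-433 was blocked with hearts given a control oligonucleotide. The genes were chosen by name and with earlier results of these data known. They comprise 5 markers of resting fibroblasts (Tcf21, Pi16, Dpt, Gsn and Cd34) and 5 markers of activated fibroblasts (Fap, Meox1, Thy1, Cd248 and Wif1). They are 10 of 22991 genes tested. On the array they are read by 11 of 55681 gene probes, because Cd34 has 2. All 11 probes were well above background on all 6 arrays, so no member was lost to the filter on dim probes. The lowest member signal, that of Wif1 on control array 2, was 19.2-fold above the lowest signal called above background on that array.

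Male C57BL/6 mice aged 8 weeks had received either a miR-433 antagomir, a synthetic oligonucleotide that binds the microRNA and blocks it, or a scrambled control oligonucleotide, by tail vein on 3 consecutive days. The dose given in the study's design is 80 mg/kg. In both groups the left anterior descending coronary artery was then ligated, which causes a myocardial infarction, and total RNA of the heart was taken 21 days later, so neither group is an uninjured heart. Each group had 3 samples, read on 1-colour Cy3 arrays, and the study asked whether blocking miR-433 limits cardiac fibrosis. It is not given in the sources used here whether the 3 samples of a group are 3 mice, nor whether scar or remote muscle was taken, and p-values therefore measure the spread between these samples only. The oligonucleotide was given to the whole animal, so the antagomir group is not a fibroblast-specific model.

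Fibroblasts are the main matrix-producing cells of the heart. At rest they maintain the collagen network between the muscle cells, and after an infarction they multiply, become contractile myofibroblasts and build the scar, and later settle into a quieter state in which they maintain it. Some genes are higher in the resting cell (matrix-binding proteins, progenitor-type surface proteins and the lineage factor Tcf21), and others are switched on with activation (surface proteases, the factor Meox1 and secreted regulators of Wnt signalling). In whole tissue, fewer cells of a type and less RNA per cell cannot be told apart. MiR-433 comes from the imprinted Dlk1-Dio3 locus, and its mature arms are shown because they name what the antagomir was made against. The sources used here do not say which arm was targeted. Both lie on chromosome 12 of GRCm38.p6, on the plus strand, at positions 109591729 to 109591750 (5p arm) and 109591781 to 109591802 (3p arm). The sequences are from RefSeq, 5′ to 3′, with the seed (bases 2 to 8) in capitals.
mmu-miR-433-5p: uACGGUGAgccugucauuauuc
mmu-miR-433-3p: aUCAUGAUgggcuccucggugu

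All 6 arrays lay on 1 slide. Control arrays 1 and 2 were in row 1 of the slide, and control array 3 and the 3 antagomir arrays in row 2. The share of gene spots called well above background was 55.2% to 58.5% on 5 arrays and 73.6% on antagomir array 3, which stood apart for this reason, and values without it are given beside the members. A level is the log2 signal after subtraction of the 75th percentile of its array, a difference is the antagomir mean minus the control mean of such levels, and every mean ± SD has n = 3. Levels of different probes are on different scales and are not set against each other. Adjusted p-values are from limma, a linear model with moderated variances, with Benjamini-Hochberg adjustment over all 22991 genes.

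Of the 10 markers, 8 had a lower mean with the antagomir and 2, Gsn and Wif1, a higher one, with a median difference of −0.90 (median of all genes tested, 0.09; 37.4% of all genes had a lower mean, or 54.2% with quantile scaling and 87% with median scaling, which also turned the sign of Gsn). The groups did not overlap for 6 markers, all lower with the antagomir (Pi16, Dpt, Cd34, Fap, Meox1 and Cd248), where 6.93% of all genes had such a pattern, and for 0 markers in the other direction, where 8.78% of genes did. The same 6 had an unadjusted limma p under 0.05, against 4.16% of all genes lower and 3.05% higher at that threshold. None passed after adjustment: 0 of 10 members had a limma adjusted p under 0.05, as did only 3 genes in all (0.013%), so none of the differences below stands above the spread between arrays once all genes are counted. The split was the same for both marker classes. Of the resting markers 4 of 5 were lower (median −0.78, 3 of them without overlap), and of the activated markers 4 of 5 (median −1.01, 3 without overlap). Without control array 2, which had the highest value of most markers, 8 members were still lower, and 3 (Pi16, Fap and Meox1) instead of 6 had an unadjusted p under 0.05. Without antagomir array 3 this count was 4.

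**Figure D1:**
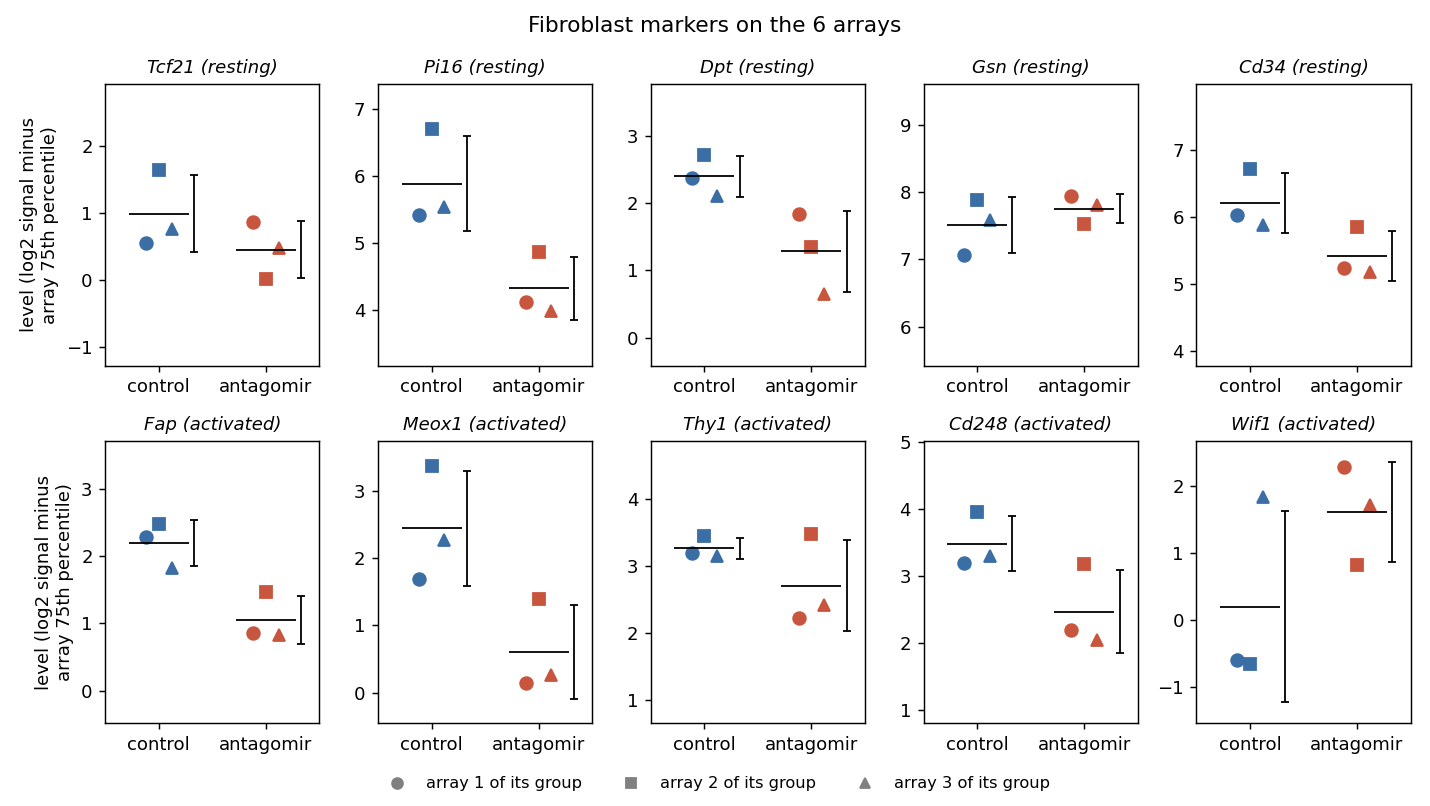
Level of each marker (log2 signal relative to the array's 75th percentile, y axis, the same span in every panel) on the 3 control and 3 antagomir arrays, with the group mean (line) and SD (bar beside it). Symbols give the array number within its group. The groups are separate for Pi16, Dpt, Cd34, Fap, Meox1 and Cd248 and overlap for Tcf21, Gsn, Thy1 and Wif1.

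Tcf21 encodes a basic helix-loop-helix transcription factor that specifies cardiac fibroblasts from the epicardium and remains on in the resting cell. The probe is at chr10:22537563-22537622 on the minus strand (mm9, as for all probes below). Its level was 0.55, 1.63 and 0.76 on the control arrays, in the order 1 to 3 as in all series of values below, and 0.86, 0.011 and 0.47 on the antagomir arrays. Control array 2 was the highest and antagomir array 2 the lowest, and the other 4 arrays were interleaved. The group means, 0.98 ± 0.57 and 0.45 ± 0.43, differed by −0.53 (SE 0.36, 95% interval −1.40 to 0.34, limma adjusted p = 0.691). Without control array 2 the difference was −0.21, and without antagomir array 3 it was −0.54. With limma's array weights it was 0.0074, so the direction for the lineage factor is not settled by these arrays.

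Pi16, peptidase inhibitor 16, marks progenitor-like fibroblasts of the vessel adventitia and the matrix of several organs. At its probe (chr17:29465784-29465843, plus strand) the level was 5.42, 6.70 and 5.54 on the control arrays and 4.12, 4.87 and 3.99 on the antagomir arrays. All 3 antagomir arrays were below all 3 control arrays, and array 2 was the highest within each group. In processed signal, the lowest control array read 18836 and the highest antagomir array 10576. The means were 5.88 ± 0.71 and 4.33 ± 0.47, a 2.94-fold difference (−1.56, SE 0.42, 95% interval −2.58 to −0.54, limma adjusted p = 0.575). With 1 array left out in turn the difference ran from −1.83 to −1.15 and the unadjusted limma p stayed under 0.05 in 6 of 6 cases. Without antagomir array 3 it was −1.39.

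Dpt encodes dermatopontin, a small matrix protein that binds decorin and helps collagen fibrils to form, and is broadly used as a marker of tissue fibroblasts. Its probe (chr1:166753703-166753762, plus strand) is printed in 10 spots on each array, of which 7 to 10 were usable. Signals of these spots on 1 array varied by 1.15% to 3.62% (coefficient of variation), which is the printing and reading error of a single hybridisation. The level was 2.38, 2.71 and 2.11 on the control arrays and 1.85, 1.36 and 0.65 on the antagomir arrays. The groups were separate, with antagomir array 3 the lowest. The means were 2.40 ± 0.30 and 1.28 ± 0.60, a 2.17-fold difference (−1.12, SE 0.34, 95% interval −1.94 to −0.29, limma adjusted p = 0.618). The difference was −0.80 without antagomir array 3, and it was −0.96, with an unadjusted limma p over 0.05, without control array 2.

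Gsn encodes gelsolin, a calcium-dependent protein that severs and caps actin filaments and, in single-cell maps of the heart, is abundant in resting fibroblasts. It is also made by other cells of the heart. Read at chr2:35163342-35163401 (plus strand), the level was 7.07, 7.88 and 7.59 on the control arrays and 7.94, 7.53 and 7.81 on the antagomir arrays. The groups overlapped throughout: control array 1 was the lowest and antagomir array 1 the highest, with control array 2 next to it. The means were 7.51 ± 0.41 and 7.76 ± 0.21 (difference 0.24, SE 0.25, 95% interval −0.36 to 0.85, limma adjusted p = 0.739). With this scaling and all 6 arrays, the interval does not reach the point estimates for Pi16, Dpt or Cd34. It does overlap the intervals of Dpt (−1.94 to −0.29) and Cd34 (−1.51 to −0.0592), and Gsn was not tested against these markers. Scaling by the array median turned the sign of the Gsn difference (−0.23), and array weights gave 0.64. Without antagomir array 3 it was 0.22.

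Cd34, a sialomucin of the cell surface, is carried by resting fibroblasts, by endothelial cells and by blood progenitors. Its brighter probe (chr1:196787392-196787451, plus strand) gave levels of 6.04, 6.72 and 5.88 on the control arrays and 5.25, 5.85 and 5.18 on the antagomir arrays. The groups were just separate, with control array 3 and antagomir array 2 next to each other. The means were 6.21 ± 0.45 and 5.43 ± 0.37, a 1.72-fold difference (−0.78, SE 0.30, 95% interval −1.51 to −0.0592, limma adjusted p = 0.675). The dimmer probe (chr1:196785280-196785339) gave −0.59 (SE 0.26) and its groups overlapped, since control array 3 (−0.45) was below antagomir array 2 (−0.43). The unadjusted limma p was under 0.05 in 2 of 6 cases with 1 array left out, those without control array 3 or antagomir array 2. Without antagomir array 3 the difference was −0.66.

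Because endothelial cells carry Cd34 too, their own markers were read beside it. Of 9 endothelial genes tested, 7 had a lower mean (37.4% of all genes did) and 2 a higher one. Their median was −0.12, and it was −0.59 with median scaling, −0.27 with the slide row block, −0.23 without antagomir array 1 and 0.0066 without antagomir array 2. The mean level of the list, with the control mean set to 0, ran from −0.098 to 0.15 on the control arrays and from −0.39 to 0.0097 on the antagomir arrays. Pecam1, an adhesion protein of endothelial junctions, differed by 0.0085 (SE 0.15; −0.46 with median scaling) and Cdh5, VE-cadherin, by −0.076 (SE 0.14). Erg, an endothelial transcription factor, differed by −0.61 (SE 0.17) and Emcn, endomucin, by −0.58 (SE 0.23). These were the only members of the list with an unadjusted limma p under 0.05, where 4.16% of all genes were lower at that threshold. The part of endothelial RNA in the Cd34 difference was not tested.

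Fap encodes fibroblast activation protein, a serine protease of the cell surface that is scarce in the uninjured heart and appears on fibroblasts after infarction. At the Fap probe (chr2:62339002-62339060, minus strand) the level was 2.28, 2.48 and 1.82 on the control arrays and 0.86, 1.47 and 0.83 on the antagomir arrays. All antagomir arrays were below all control arrays. The means were 2.20 ± 0.34 and 1.05 ± 0.36, a 2.21-fold difference (−1.14, SE 0.26, 95% interval −1.78 to −0.51, limma adjusted p = 0.545). It had the lowest p of the 10 members, at rank 190 among all genes. With 1 array left out the difference ran from −1.35 to −1.0 and was −1.03 without antagomir array 3, and the unadjusted limma p was under 0.05 in 6 of 6 cases.

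Meox1 encodes a homeobox transcription factor that is switched on in activated cardiac fibroblasts and promotes their contractile programme. The Meox1 probe (chr11:101738847-101738906, minus strand) gave levels of 1.68, 3.37 and 2.27 on the control arrays and 0.14, 1.40 and 0.26 on the antagomir arrays. The groups were separate, although control array 1 and antagomir array 2 were close, and array 2 was again the highest in both groups. The means were 2.44 ± 0.86 and 0.60 ± 0.69, a 3.58-fold difference (−1.84, SE 0.53, 95% interval −3.14 to −0.54, limma adjusted p = 0.604). This was the largest difference among the 10 members, with the widest interval after that of Wif1. It ran from −2.24 to −1.38 with 1 array left out, and was −1.67 without antagomir array 3.

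Cd248, endosialin, is a surface glycoprotein of activated fibroblasts and of pericytes, the contractile cells around capillaries. Levels at its probe (chr19:5070558-5070617, plus strand) were 3.19, 3.96 and 3.30 on the control arrays and 2.19, 3.18 and 2.04 on the antagomir arrays. The groups were separate only by the distance between control array 1 (3.186) and antagomir array 2 (3.175). The means were 3.48 ± 0.41 and 2.47 ± 0.61, a 2.02-fold difference (−1.01, SE 0.37, 95% interval −1.91 to −0.11, limma adjusted p = 0.674). It was −0.80 without antagomir array 3 and −0.78 without control array 2, in both cases with an unadjusted limma p over 0.05. Of 8 smooth muscle and pericyte markers tested, 6 had a lower mean (37.4% of all genes did) and 2 a higher one. The median of these markers was −0.50, and 4 were lower at an unadjusted limma p under 0.05 (4.16% of all genes). Their mean level ran from −0.079 to 0.11 on the control arrays and from −0.59 to −0.21 on the antagomir arrays. Their part in the Cd248 difference was not tested.

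Thy1 (CD90) is a glycoprotein anchored to the outer membrane of fibroblasts and, in mice, of T cells. The Thy1 probe (chr9:43856591-43856650, plus strand) gave levels of 3.19, 3.45 and 3.15 on the control arrays and 2.23, 3.48 and 2.42 on the antagomir arrays. Antagomir array 2 was the highest of all 6, and the other 2 antagomir arrays were the lowest. The means were 3.26 ± 0.16 and 2.71 ± 0.68 (difference −0.55, SE 0.35, 95% interval −1.40 to 0.30, limma adjusted p = 0.691). Without antagomir array 2 the difference was −0.94 (unadjusted limma p under 0.05), and without antagomir array 3 it was −0.41.

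On the array with the high Thy1 level, 5 of 6 T cell genes were the highest of all arrays, the exception being Cd4. The mean of 6 T cell genes tested, with the control mean set to 0, was 3.22 on antagomir array 2, against −1.09 and 0.46 on antagomir arrays 1 and 3 and −0.12 to 0.098 on the control arrays. Lck, a kinase of the T cell receptor, had levels of −2.55, −2.03 and −2.79 on the control arrays and −3.49, 2.04 and −2.61 on the antagomir arrays. Cd3d, a chain of the receptor complex, was well above background on all 3 control and on 2 of 3 antagomir arrays, with a level of 1.41 on antagomir array 2 against −3.38 to −3.04 on the control arrays. Of the 6, all had a higher mean with the antagomir (as did 14401 of all 22991 genes) and 0 had an unadjusted limma p under 0.05. Without antagomir array 2 the list median, 0.96 over all arrays, was −0.31, and Lck differed by −0.59 and Cd3d by −0.94. The list mean lay above the control range on antagomir arrays 2 and 3 only. Whether T cell RNA contributes to the Thy1 level of antagomir array 2 was not tested.

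Wif1, Wnt inhibitory factor 1, is a secreted protein that binds Wnt ligands, and is listed here with the activated markers. It is the one activated marker with a higher mean in the antagomir group. At chr10:120537079-120537138 (plus strand) the level was −0.59, −0.66 and 1.84 on the control arrays and 2.28, 0.81 and 1.71 on the antagomir arrays. Control arrays 1 and 2 were the lowest, while control array 3 was higher than antagomir arrays 2 and 3. In processed signal the controls read 292.2, 289.3 and 1503 and the antagomir arrays 1750, 636.9 and 1300. The means were 0.20 ± 1.42 and 1.60 ± 0.74 (difference 1.41, SE 0.76, 95% interval −0.46 to 3.27, limma adjusted p = 0.691). The low pair of controls is the pair in row 1 of the slide. A fit with row as a block sets only control array 3 against the antagomir group, and there the difference was −0.23 (95% interval −1.71 to 1.24). Without control array 3 it was 2.23 (unadjusted limma p under 0.05), and without antagomir array 3 it was 1.35. With 1 array left out in turn it was above 0 in 6 of 6 cases.

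With this block the other members kept their direction, at smaller sizes and with intervals that include 0 for all 10. Within row 2 the difference was −1.21 for Pi16, −0.83 for Dpt, −0.45 for Cd34, −0.77 for Fap, −1.67 for Meox1 and −0.83 for Cd248. The block rests on a single control array, whose spread is taken to be that of the others. No antagomir array lies in row 1, so for the comparison with control arrays 1 and 2 the slide row and the treatment cannot be told apart.

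**Figure D2:**
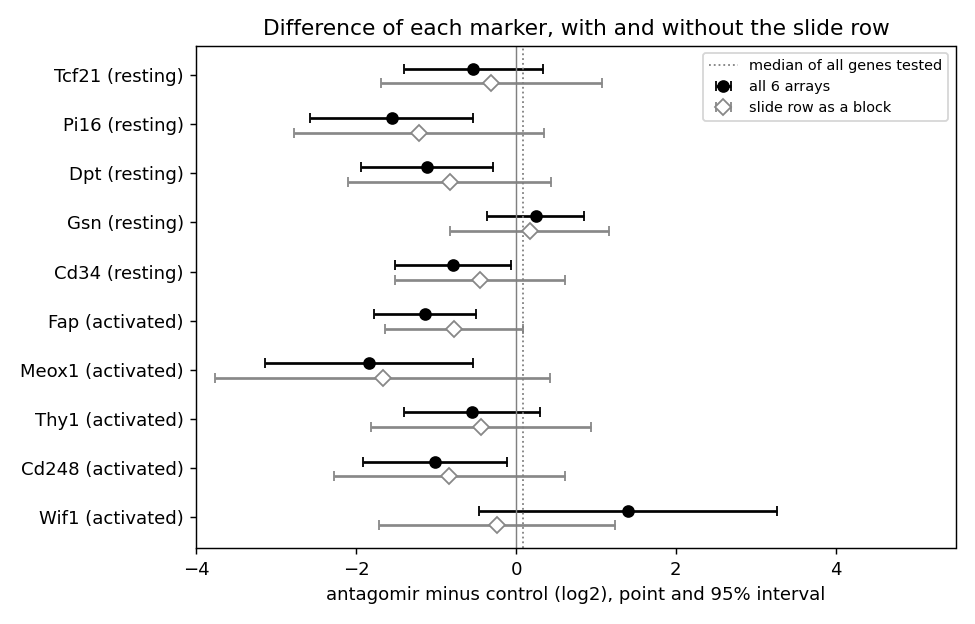
Difference between antagomir and control means for each marker on the log2 scale (x axis), with its 95% interval, from all 6 arrays (filled circles) and after blocking on slide row (open diamonds), beside the median of all genes tested (dotted line). All 10 intervals of the blocked fit include 0, against 4 of 10 from all arrays, and Wif1 changes sign.

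Most markers moved together from array to array. Pearson's r over the 6 arrays, which share the group difference, a slide and a scaling, was 0.99 between Pi16 and Meox1, 0.98 between Pi16 and Cd34, 0.97 between Cd34 and Cd248 and 0.97 between Meox1 and Cd248. Pairs across the 2 classes (median r 0.50 over 25 pairs) included values as high as pairs within the resting class (median 0.59 over 10 pairs, highest 0.98) and within the activated class (median 0.82 over 10 pairs, highest 0.97). Gsn ran apart, with r between −0.46 and 0.48 against the other 9. Wif1 was negatively related to all markers except Gsn, down to −0.86 with Fap. Tcf21 had r = 0.68 with Dpt and 0.049 with Thy1. These values describe 6 arrays in 2 groups, and part of each is the group difference itself.

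Upstream sequence is shown for 4 members that differ in this respect: Pi16, Cd34 and Dpt, which were lower together, and Wif1, which was not. A RefSeq table of promoters (GRCm38.p6) held 6 of the 10 members (Tcf21, Pi16, Dpt, Gsn, Cd34 and Wif1). Each run is the 250 bases before the gene's start, on its own strand, 5′ to 3′, at chr17:29318632-29318881 for Pi16, chr1:194938571-194938820 for Cd34, chr1:164796413-164796662 for Dpt and chr10:121033754-121034003 for Wif1, all on the plus strand. Capitals mark matches to either strand of CAGCTG, the E-box bound by Tcf21, in Dpt, and of GGGCGG, the GC box bound by Sp factors, in Wif1.
Pi16: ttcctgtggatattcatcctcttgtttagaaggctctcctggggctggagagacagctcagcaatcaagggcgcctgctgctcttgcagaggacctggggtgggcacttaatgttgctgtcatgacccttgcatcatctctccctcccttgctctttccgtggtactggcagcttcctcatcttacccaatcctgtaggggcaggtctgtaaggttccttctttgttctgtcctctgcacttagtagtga
Cd34: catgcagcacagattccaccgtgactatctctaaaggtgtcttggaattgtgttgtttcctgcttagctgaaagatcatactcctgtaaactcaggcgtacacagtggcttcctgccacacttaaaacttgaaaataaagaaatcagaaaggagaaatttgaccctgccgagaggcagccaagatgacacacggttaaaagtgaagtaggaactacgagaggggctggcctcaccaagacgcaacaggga
Dpt: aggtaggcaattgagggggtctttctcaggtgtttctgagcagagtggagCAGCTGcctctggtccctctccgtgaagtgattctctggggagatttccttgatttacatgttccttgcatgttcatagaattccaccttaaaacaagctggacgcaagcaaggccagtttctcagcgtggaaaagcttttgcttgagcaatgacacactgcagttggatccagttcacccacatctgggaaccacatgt
Wif1: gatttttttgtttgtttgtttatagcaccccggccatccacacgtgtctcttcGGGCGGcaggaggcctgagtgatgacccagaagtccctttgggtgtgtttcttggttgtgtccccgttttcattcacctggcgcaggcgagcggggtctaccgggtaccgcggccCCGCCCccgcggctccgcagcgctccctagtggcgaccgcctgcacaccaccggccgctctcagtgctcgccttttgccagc

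The 4 windows differ in base composition, from 46.4% G and C in Cd34 and 48.8% in Dpt to 52.4% in Pi16 and 62.8% in Wif1. CAGCTG was found in 2 of the 6 members' windows, those of Dpt (200 to 195 bases before the start) and Gsn (at 2 of its 3 listed starts), and in 12.8% of 27025 promoters of the same length. GGGCGG was found in Gsn and Wif1 (in Wif1 at 197 to 192 and 82 to 77 bases before the start), and in 32.9% of promoters. Neither word was found in Pi16, Cd34 or Tcf21. Motifs of factors known for fibroblast activation were searched too, on both strands. TGANTCA, the AP-1 site, GGAATG, the TEAD site, and CAGACA, a Smad site, had 0 matches in the 6 members' windows, and were found in 6.87%, 12.6% and 17.1% of promoters. None of these words overlaps another in the windows shown. A match is a description of letters, and their absence says nothing of a factor's binding elsewhere.

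Other fibroblast genes were read beside the markers. Their lists were chosen with earlier results of these data known, so the counts are description and not a test. Among all genes tested, 37.4% had a lower mean and 4.16% were lower at an unadjusted limma p under 0.05. Of 12 further genes of resting fibroblasts, 7 were lower (median −0.32), and 3 had an unadjusted limma p under 0.05, all lower. The median of this list was −0.021 without control array 2 and −0.55 without control array 1, and it was −0.054 with array weights and −0.79 with median scaling. The 3 genes under that p were Fbln1, the matrix protein fibulin-1 (−1.53, SE 0.30, limma adjusted p = 0.517), Smoc2, a secreted calcium-binding matrix protein (−0.68, SE 0.16), and Mfap5, a microfibril protein (−1.96, SE 0.50). Scara5, a ferritin receptor of adventitial fibroblasts chosen on its values, did not overlap and was higher (0.84, SE 0.40). Of 16 further genes of activated fibroblasts and scar, 16 were lower, with a median of −2.24, and 12 had an unadjusted p under 0.05. Comp, a matrix protein that binds collagen, differed by −4.96 (SE 0.69, limma adjusted p = 0.48). Cthrc1 and Tnc (tenascin C), secreted proteins of the scar, were well above background on 3 of 3 control and 0 of 3 antagomir arrays. They were at least 17.7-fold and at least 1.23-fold lower against the lowest signal called above background. Both passed the filter only through the control arrays, so a lower mean was built into their entry. Both are counted among the 16 and the 12, and their p-values rest on antagomir values under that lowest signal. The activated markers described above had a smaller median difference (−1.01) than this list, a contrast between lists that was not tested.

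Genes that fibroblasts carry in either state, a list chosen in the same way, were lower for 10 of 10. Their median was −0.88, with 7 at an unadjusted limma p under 0.05 (4.16% of all genes were lower at that threshold). The collagen chains Col3a1 (−3.33, SE 0.53), Col1a2 (−2.17, SE 0.37) and Col1a1 (−2.82, SE 0.50) had the smallest p-values. At the other end, chosen on their values, stood the proteoglycan decorin (Dcn, −0.0016, SE 0.17, 95% interval −0.42 to 0.42) and the fibroblast lineage receptor Pdgfra (−0.35, SE 0.21). Dcn levels were 8.45, 8.48 and 8.73 on the control arrays and 8.58, 8.75 and 8.32 on the antagomir arrays, fully interleaved. The groups overlapped for Dcn and Pdgfra, as they did for Tcf21 and Gsn among the members. The sign of the Dcn difference turned without control array 3 (0.085), without antagomir array 3 (0.11) and with array weights (0.059).

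**Figure D3:**
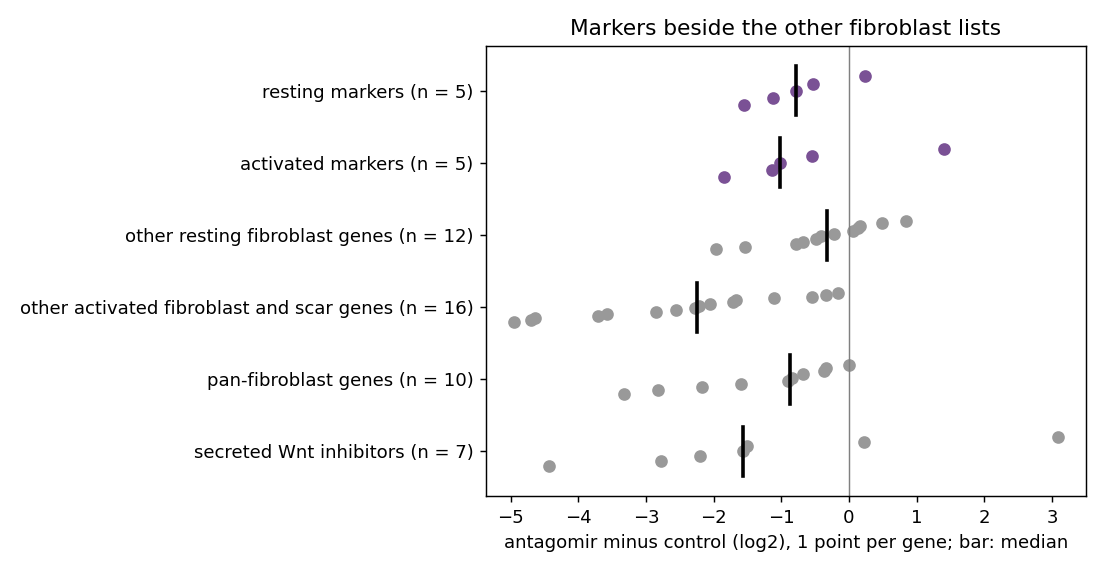
Difference between antagomir and control means on the log2 scale (x axis) for each tested gene of the 2 marker classes (purple) and of 4 further lists (grey), with the list median as a black bar. All 16 further scar genes and 10 of 10 pan-fibroblast genes lie below 0. Among them Runx1 lies at −0.16 with overlapping groups, and Dcn only at −0.0016 (above 0 with array weights). Gsn (below 0 with median scaling) and Wif1 (below 0 with the row as a block) are the points above 0 among the markers.

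Wif1 belongs to the secreted Wnt inhibitors, so the rest of that family was read as well. Of 10 other genes 7 were tested, and 5 of these were lower (37.4% of all genes were) and 2 higher (median −1.56, or −0.69 with no filter on dim probes). Sfrp2, a secreted frizzled-related protein, had levels of 4.48, 5.80 and 3.85 on the control arrays and 0.14, 0.75 and −0.067 on the antagomir arrays (−4.44, SE 0.52, limma adjusted p = 0.235). Frzb (−2.77, SE 0.59) and Sfrp4 (−2.20, SE 0.50), of the same family, did not overlap either. Sfrp5, chosen on its values, went the other way: its levels were −0.94, −3.57 and 0.030 on the control arrays and 1.52, 1.02 and 2.25 on the antagomir arrays (3.09, SE 0.93, limma adjusted p = 0.617). The inhibitors were not uniform in direction, and Wif1 and Sfrp5 were both higher on average, with control array 3 the highest control for each. Sfrp5 is among the genes made by fat cells, and 5 of 5 adipocyte genes tested had a higher mean with the antagomir (as did 14401 of all 22991 genes). Their median difference, 3.20, was 0.60 with the slide row block, 1.45 with normexp correction and 1.96 without control array 1, where all of them except Cfd lay under the lowest level called above background. The mean level of this list, with the control mean set to 0, was −2.65, 0.062 and 2.59 on the control arrays and 1.41, 4.06 and 3.94 on the antagomir arrays. For Wif1 the levels on the control arrays were −0.59, −0.66 and 1.84. The part of adipocyte RNA in the Wif1 or Sfrp5 values was not tested.

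The whole pattern of each class over the 6 arrays was also compared with all other genes. The resting class mean, centred on the control mean, was −0.31, 0.53 and −0.22 on the control arrays and −0.60, −0.68 and −0.98 on the antagomir arrays. The genes closest to it by Pearson's r over 6 arrays were Tpbg (0.997), a membrane glycoprotein that modulates Wnt signalling, Gm715, Fam114a1, Atp6v0a4, a subunit of the vacuolar proton pump, and Cdc42bpa (0.994), a kinase acting downstream of Cdc42. Tpbg and Gm715 were well above background on only 2 of 3 antagomir arrays and Atp6v0a4 on 1 of 3, so their r rests partly on values near background. The activated class mean was −0.36, 0.20 and 0.16 on the control arrays and −0.78, −0.25 and −0.86 on the antagomir arrays. Its groups overlapped, since antagomir array 2 was above control array 1. Wif1 is part of this mean and ran the other way, at −0.59 on control array 1 and 0.81 on antagomir array 2. By themselves, Fap, Meox1 and Cd248 did not overlap, and Thy1 did. Closest to the activated class mean were Arrb1 (0.988), an arrestin that switches off G protein-coupled receptors, Slitrk4, Apba1, P3h2, a collagen prolyl hydroxylase, and Csf1 (0.977), the growth factor of macrophages. With 22991 genes and 6 arrays such values of r are found by selection, and they carry no test. Another probe of Cdc42bpa gave a difference of the opposite sign (0.056, against −0.21).

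**Figure D4:**
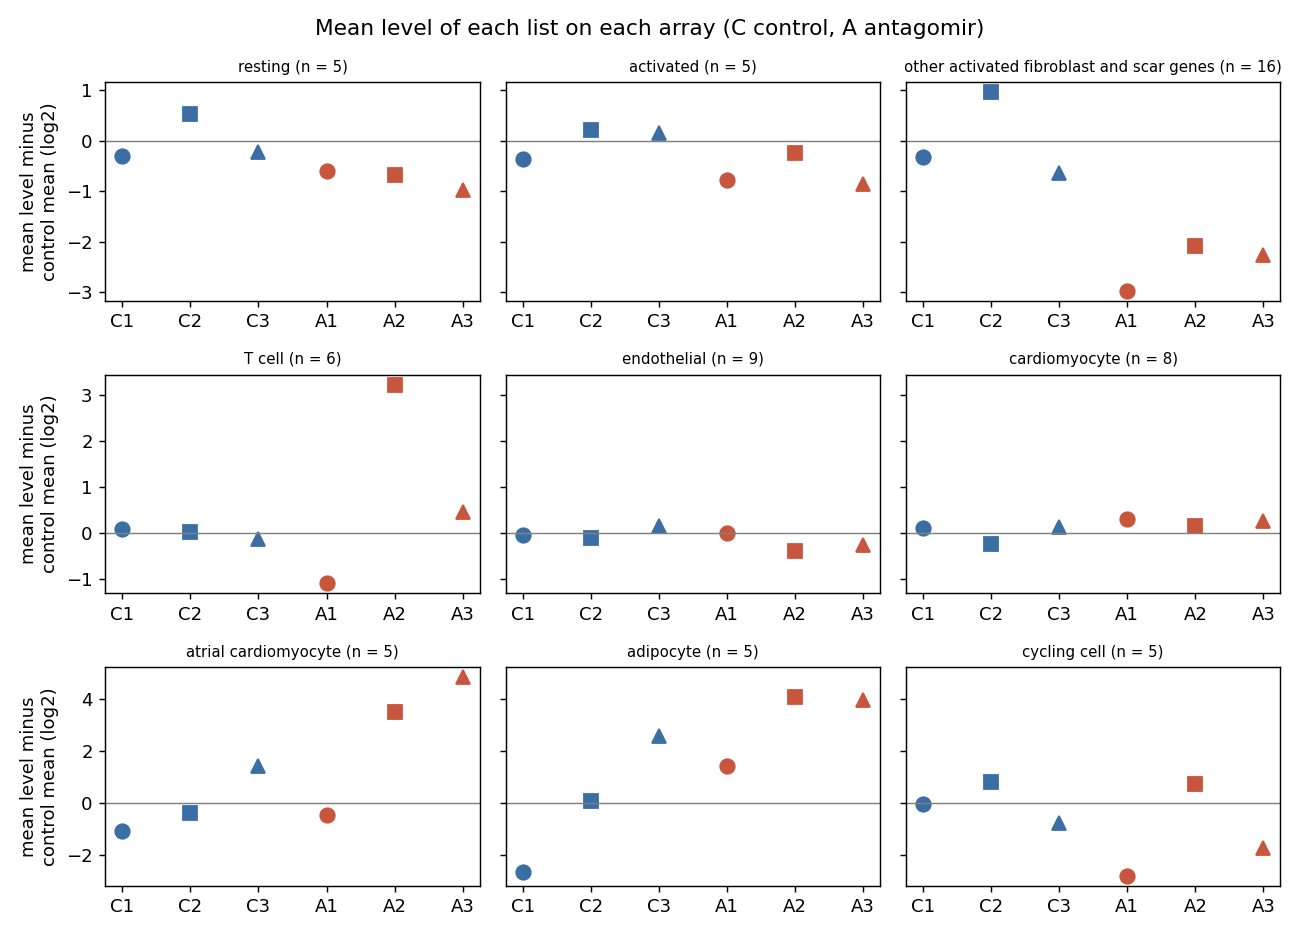
Mean level of each list on each array minus its control mean, on the log2 scale (y axis, shared within a row of panels), for the 2 marker classes and for lists of other genes and cell types; n is the number of genes tested. The scar genes separate the groups, the T cell list is high on antagomir array 2 (3.22), and the atrial, adipocyte and cycling lists vary among arrays of 1 group by several log2 units.

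Several lists of other cell types varied among the arrays of 1 group. Atrial cardiomyocyte genes, with the control mean set to 0, read −1.06, −0.37 and 1.43 on the control arrays and −0.46, 3.49 and 4.83 on the antagomir arrays. Ventricular and general cardiomyocyte genes read −0.24 to 0.14 on the control arrays and 0.16 to 0.31 on the antagomir arrays, a narrow span without overlap. The mean was higher for 8 of 8, as for 14401 of all 22991 genes. Of the 8, 4 did not overlap, all higher (8.78% of all genes). The list median of 0.22 was 0.10 without control array 2, and turned to −0.014 with quantile scaling and −0.25 with median scaling. Cycling-cell genes read −0.053, 0.83 and −0.78 on the control arrays and −2.79, 0.74 and −1.71 on the antagomir arrays, so they were high on array 2 of both groups. Macrophage genes ran from −0.56 to 0.66 on the antagomir arrays and from −0.11 to 0.18 on the control arrays. Epicardial and mesothelial genes, which mark the layer that fibroblasts with Tcf21 come from, ran from −1.27 to 1.77 on the antagomir arrays and from −0.71 to 0.43 on the control arrays. Glial genes stayed between −0.37 and 0.50 on all 6 arrays. The part of these differences between samples in the marker values was not tested.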

How the data were processed

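Total RNA of 6 samples of infarcted mouse heart was read on 1-colour Cy3 arrays. The deposited scanner files, per the file headers made with Agilent Feature Extraction 10.7.1.1, hold for each spot a processed intensity, already background-corrected, mean and background intensities, and other flags of 0 or 1. The authors' deposited table holds intensities and normalised log2 values, used only as an alternative. Probe coordinates come from the files (mm9).

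From the 59305 gene spots per array, outlier spots (154 to 233) were left out, spots of a probe averaged on the log2 scale, and the array's 75th percentile subtracted. No spot was saturated. A probe was tested if at least 3 of 6 arrays read it well above background, and a gene with several such probes was represented by the brightest. Groups were compared with limma 3.58.1 (R 4.3.3, two-sided, Benjamini-Hochberg). An exact permutation test of 3 against 3 cannot give p below 0.1. The fit was tested on simulated data. Figures used Python 3.11.15 and matplotlib 3.10.9. Precision is limited by the number of arrays.

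The members and all gene lists were chosen with earlier results of these data known. Genes named besides the members were the 5 closest to each class mean by r, up to 3 per list with the smallest p, and markers shared with endothelial or T cells; any other is described as chosen on its values. Alternatives covered background correction, scaling, the deposited table, the filter, the probe rule, variance moderation, array weights, the replicate number and slide row as blocks, and each array left out. Same-numbered arrays did not deviate together in all pairs (r = 0.222, 0.142 and −0.0486), so the numbers were not taken as pairs.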

Additional observations from a re-analysis of the deposited data

How the results depend on the processing

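Between 7 and 9 of the 10 markers were lower in the 17 alternatives run, and 3 turned their direction: Tcf21 with array weights (0.00738), Gsn with median scaling (−0.227) and Wif1 under the slide row block (−0.234). With median scaling 9 were lower, where 87% of all genes were lower too. With quantile scaling 8 were lower, beside 54.2% of all genes. Shares of all genes at an unadjusted limma p under 0.05 were taken only for the fit in the report. The number of markers lower at an unadjusted limma p under 0.05, 6 in the report, was 0 under the slide row block, 6 with the replicate block and 3 to 7 with 1 array left out. The median difference was −1.26 (resting) and −1.48 (activated) with median scaling, which itself shifts the median of all genes to −0.38, and it ran from −0.997 to −0.531 (resting) and −1.35 to −0.775 (activated) with 1 array left out. Genes past the adjusted limma threshold, 3 in the report, were 199 with median scaling, 8 with array weights, 1 with quantile scaling, the authors' table or no filter, 0 to 3 with 1 array left out, and 0 with normexp and quantile scaling, the filter on all 6 arrays, the replicate block or the slide row block. Meox1 was past that threshold with median scaling only. Among other genes, signs turned for Cdc42bpa by another probe (0.0558), Dcn (0.0588 with array weights, −0.102 to 0.113 with 1 array left out, and 0.0853 without control array 3), Cd3d (−0.719 with array weights, −0.936 to 2.47 with 1 array left out), Lck (−0.594 to 2.17), Cdh5 (−0.139 to 0.024) and Pecam1 (−0.463 with median scaling, −0.0187 with the row block, and −0.0883 to 0.0998 with 1 array left out). The cause of these turns was not tested. Runx1, Nppa and list genes not named were not followed gene by gene through the alternatives. All member probes were well above background on all 6 arrays.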
